A study of Schizosaccharomyces pombe with 5 samples.

Results

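The 8 genes cct1 to cct8 of the fission yeast Schizosaccharomyces pombe encode the subunits of CCT, the chaperonin of the cytosol. They were chosen by name, as the probes that the platform annotation assigns to these symbols, and they are 8 of 4907 genes and unnamed probe pairs measured on all 5 arrays. Each gene has 2 oligonucleotides, and all 16 had a value on every array. On the arrays labelled tra1-1 (n = 3) the Cy5 channel held cDNA from tra1-1 mutant cells and the Cy3 channel cDNA from wild-type cells, while on the arrays labelled wild type (n = 2) wild-type cDNA filled both channels. All cells grew at 30 degrees per the labels. Neither the nature of the tra1-1 mutation nor any further genotype is labelled. The design text gives independent experiments of both strains. Whether replicates are separate cultures is not stated, so that p-values reflect only how these arrays varied. tra1 encodes the fission yeast counterpart of human TRRAP, a scaffold subunit of the SAGA acetyltransferase complex. Values below are read as log2(Cy5/Cy3) after the median of every array was set to 0. Neither the log base nor the direction is stated with the values, and every sign would turn if the ratio were Cy3 over Cy5.

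CCT is built as a pair of stacked rings, each holding 1 copy of every subunit, and it folds newly made proteins inside its cavity at the cost of ATP. Actin and the tubulins are its best known substrates, and several WD-repeat proteins also depend on it. The subunits are paralogs that arose from a common ancestor, and in budding yeast each is essential. In budding yeast the subunits Cct1, Cct2, Cct4 and Cct5 form the side of the ring that binds ATP readily, and Cct3, Cct6, Cct7 and Cct8 form the other side. Because each ring needs every subunit in equal number, the genes lend themselves to the question of whether members of 1 complex move together at the transcript level.

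The labels carry a doubt that touches each direction given here. For tra1 itself the arrays labelled tra1-1 replicates 1, 2 and 3 gave 0.04, 0.02 and -2.21, against -1.41 and -2.04 on wild type 1 and 2. tra1 was thus low on the arrays labelled wild type, which should show no ratio, and on 1 array labelled tra1-1. Over all genes, which are not independent replicates, that array correlated with the pair labelled wild type at r of at least 0.72 and with the other arrays labelled tra1-1 at r of at most 0.47. Differences between the groups are therefore given also without the array labelled tra1-1 replicate 3, and the groups keep their labels. Each array gave values for 9695 to 9832 of 9858 probes.

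The cct ratios stayed within 2-fold of the median ratio on every array, which says nothing of how abundant the transcripts were. Of the 40 values (8 genes on 5 arrays), 0 lay at least 1 from 0, which is 2-fold, and the farthest was 0.62 from it. Ranked by ratio among all genes of an array, the 8 genes lay between the 7.07th and the 91.7th percentile. The SD of a gene over the 5 arrays ran from 0.09 for cct3 to 0.28 for cct5, with a median of 0.19 for the 8 genes, and the median over all genes was also 0.19.

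The genes of the side that binds ATP readily did not share a pattern. cct5 had -0.08, 0.27 and 0.18 on the arrays labelled tra1-1, against -0.39 and -0.24 on those labelled wild type. All of its tra1-1 values lay above both wild-type values, and cct5 was the only subunit of the 8 for which this held. cct4 had -0.27, -0.11 and -0.04 on the arrays labelled tra1-1, against 0.00 and 0.23 on those labelled wild type, so its groups did not overlap either, but in the opposite direction. cct2 had -0.10, 0.01 and 0.04 on the arrays labelled tra1-1, against -0.02 and 0.26 on those labelled wild type. Its groups overlapped, and the array labelled wild type 2 was its highest. cct1 had 0.03, 0.10 and -0.32 on the arrays labelled tra1-1, against -0.20 and 0.10 on those labelled wild type, and it was lowest on the array labelled tra1-1 replicate 3.

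On the other side of the ring, cct7 had 0.18, 0.42 and 0.39 on the arrays labelled tra1-1, against -0.13 and 0.18 on those labelled wild type, and the groups met at 0.18. cct8 had -0.23, 0.02 and -0.62 on the arrays labelled tra1-1, against -0.18 and -0.26 on those labelled wild type. Its value on the array labelled tra1-1 replicate 3 was the lowest of all 40, and its groups overlapped. cct3 had 0.23, 0.02 and 0.24 on the arrays labelled tra1-1, against 0.13 and 0.21 on those labelled wild type, above 0 on every array. cct6 had -0.14, -0.09 and -0.19 on the arrays labelled tra1-1, against -0.10 and 0.06 on those labelled wild type, and both cct3 and cct6 varied little.

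**Figure D1:**
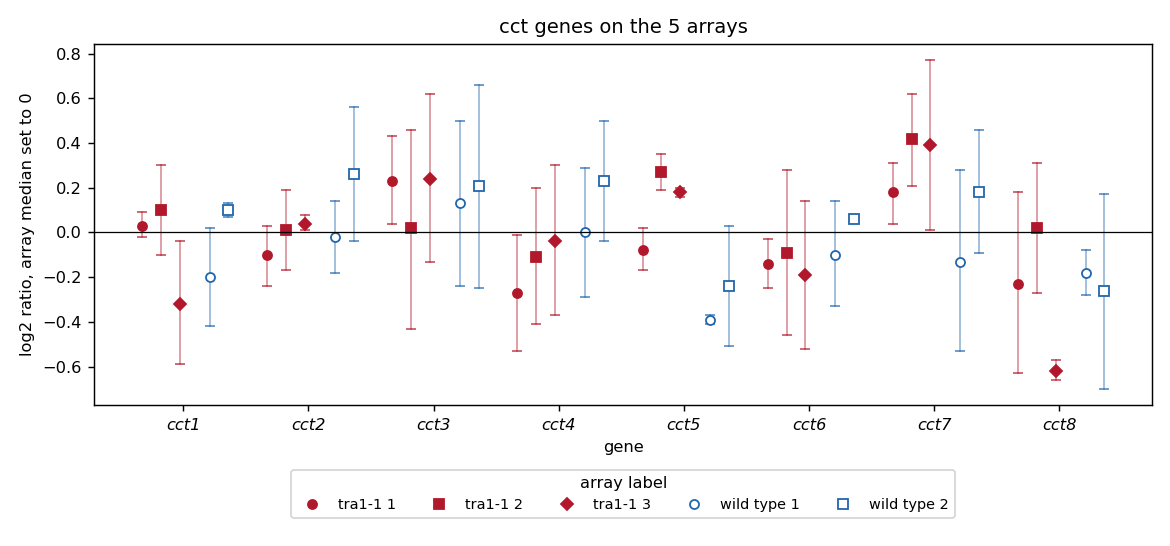
Log2 ratio (y axis, array median set to 0) of each cct gene (x axis) on the 5 arrays, with tra1-1 as filled and wild type as open symbols; bars join the 2 oligonucleotides of a gene, whose mean is the symbol. All gene values lie within 0.62 of 0, cct5 is higher on every array labelled tra1-1, cct4 is lower there, and the other genes overlap.

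The comparison of the arrays labelled tra1-1 with those labelled wild type asked which transcripts differ between the strains. None of the 8 cct genes passed: limma called 0 of 8 at an adjusted p under 0.05, and it called 0 of 4907 genes in all (0%). At an unadjusted p under 0.05 there was 1 cct gene, cct5, of 349 genes (7.11%). cct5 averaged 0.12 ± 0.18 on the arrays labelled tra1-1 (SD, n = 3) and -0.31 ± 0.10 on those labelled wild type (SD, n = 2). Its difference of 0.44 ± 0.17 (SE, limma unadjusted p = 0.0264, adjusted p = 0.685) ranked 185th by p among all genes. The groups did not overlap in 2 of 8 cct genes, cct5 and cct4, beside 23.3% of all genes.

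Differences of the remaining subunits were smaller and ran both ways. cct7 averaged 0.33 ± 0.13 on the arrays labelled tra1-1 (SD, n = 3) and 0.03 ± 0.22 on those labelled wild type (SD, n = 2), a difference of 0.30 ± 0.17 (SE, limma adjusted p = 0.747). cct4 averaged -0.14 ± 0.12 (SD, n = 3) and 0.11 ± 0.16 (SD, n = 2) in the same order, a difference of -0.25 ± 0.17 (SE, limma adjusted p = 0.766). The differences of cct2 and cct6 were -0.14 and -0.12, those of cct8 and cct1 -0.05 and -0.01, and that of cct3 just below 0 (0.00), with standard errors of 0.16 to 0.20. In all, 2 subunits lay above 0 and 6 below (4 and 3 above 0 with quantile and scale normalization), and 49.4% of all genes lay above 0. The median difference of the 8 genes was -0.03, and the median over all genes was 0.00. The SD of the 8 differences was 0.23, beside 0.25 over all genes and a median standard error of 0.17 for a cct gene.

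The intervals give the precision of each difference between the groups as labelled. Because the label of the array tra1-1 replicate 3 is in doubt, they need not bound a difference between the strains. None is given without that array. Each 95% interval of limma, unadjusted for the number of genes, stayed within 2-fold, from a lowest bound of -0.62 for cct4 to a highest of 0.82 for cct5. The interval of cct5 ran from 0.06 to 0.82, and those of the other 7 genes included 0. For cct3 and cct6 the intervals were -0.36 to 0.35 and -0.47 to 0.22.

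Without the array labelled tra1-1 replicate 3, limma again called 0 of 8 cct genes, while it called 4.18% of all genes. cct5, cct7 and cct4 then differed by 0.41, 0.27 and -0.30 (limma adjusted p = 0.209, 0.458 and 0.367). At an unadjusted p under 0.05 there was again 1 cct gene, cct5, beside 17.2% of all genes. The differences of cct1 and cct8 turned to 0.11 and 0.12, so that 4 subunits lay above 0, and the median of the 8 was 0.04.

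The 2 oligonucleotides of a subunit gave a separate reading of each difference. They lay on the same side of 0 in 3 of the 8 genes, beside 56.6% of the 4673 genes with both oligonucleotides on every array. The median gap between the 2 differences of a gene was 0.21 for the cct genes and 0.22 over all genes. Both cct5 oligonucleotides were higher on the arrays labelled tra1-1, by 0.33 and 0.55, and both cct7 oligonucleotides were, by 0.20 and 0.40. Those of cct8 differed by -0.03 and -0.07. The lower mean of cct4 came from 1 oligonucleotide, at -0.54, since the other stood at 0.04. The oligonucleotide at -0.54 had -0.53, -0.41 and -0.37 on the arrays labelled tra1-1, against -0.29 and 0.50 on those labelled wild type. For cct2 and cct6 likewise 1 oligonucleotide stood at -0.28, and the other at 0.00 and 0.03. On wild type 1 and 2 the oligonucleotides at -0.28 had 0.14 and 0.56 for cct2, and -0.33 and 0.07 for cct6. Their wild type 1 values lay within the range of their tra1-1 values.

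**Figure D2:**
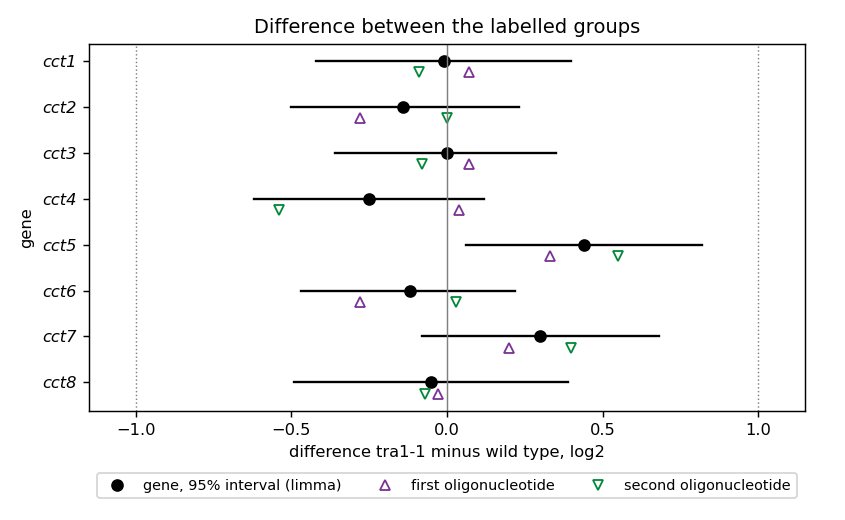
Difference of tra1-1 minus wild type (x axis, log2) for each cct gene (y axis), with filled circles for the gene, lines for its 95% interval from limma and triangles for the 2 oligonucleotides; dotted lines mark 2-fold. Every interval lies inside 2-fold, only that of cct5 leaves out 0, and cct5 and cct7 are the only genes with both oligonucleotides above 0.

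Ratios from the 2 oligonucleotides of a subunit often disagreed in level. The median gap between the 2 oligonucleotides of a cct gene was 0.27, 0.50 and 0.60 on the arrays labelled tra1-1, against 0.45 and 0.55 on those labelled wild type. Over all genes it was 0.30, 0.35 and 0.40 on the arrays labelled tra1-1, against 0.32 and 0.32. In cct3, cct7 and cct8 the same oligonucleotide was the higher on all 5 arrays, with mean gaps of 0.74, 0.56 and 0.51. cct3 shows this plainly, since its oligonucleotides stood at 0.04, -0.43 and -0.13, and at 0.43, 0.46 and 0.62, on the arrays labelled tra1-1, and at -0.24 and -0.25, and at 0.50 and 0.66, on those labelled wild type. A gap of constant size would drop out of the difference between the groups but not out of a level. These gaps kept their sign but not their size. The 2 oligonucleotides differed between the groups by 0.07 and -0.08 for cct3, 0.20 and 0.40 for cct7, and -0.03 and -0.07 for cct8. Because of the gaps, the order of the subunits on an array is not read here as an order of their transcripts.

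The subunits did not all lie on 1 side of 0 on any array. Above 0 were 3, 6 and 4 of the 8 genes on the arrays labelled tra1-1 replicates 1, 2 and 3, against 1 and 6 on those labelled wild type 1 and 2, where 48.9 to 51.8% of all genes lay above 0. Their means were -0.05, 0.08 and -0.04 on the arrays labelled tra1-1, against -0.11 and 0.07 on those labelled wild type, so that the 2 arrays labelled wild type lay nearly as far apart as any pair. The SD between the 8 subunits was 0.18, 0.18 and 0.33 on the arrays labelled tra1-1, against 0.16 and 0.21 on those labelled wild type. Over all genes the SD was 0.26, 0.30 and 0.45 on the arrays labelled tra1-1, against 0.40 and 0.39. On each array the SD between the subunits was smaller than the median oligonucleotide gap given above. These measures are unlike, since the SD is taken over means of 2 oligonucleotides and the gap lies between single ones. The array labelled tra1-1 replicate 3 was where the subunits spread most, between -0.62 for cct8 and 0.39 for cct7.

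No array was the highest or the lowest for all of them. The array labelled wild type 2 was the highest for 4 genes (cct1, cct2, cct4, cct6), that labelled tra1-1 replicate 2 for 3 (cct5, cct7 and cct8) and that labelled tra1-1 replicate 3 for cct3. The lowest value fell on the array labelled tra1-1 replicate 3 for cct1, cct6 and cct8, on that labelled tra1-1 replicate 1 for cct2 and cct4, on that labelled tra1-1 replicate 2 for cct3, and on that labelled wild type 1 for cct5 and cct7. Split by source, 11.0% of the sum of squares of the 40 values lay between arrays and was common to the subunits. Another 40.1% lay between genes, and 48.9% was left over. With 1 value per gene and array, the part left over holds measurement noise as well as any change specific to a gene. Once the constant level of each gene is set aside, the common part was 18.4% of the remaining sum of squares, beside 4 of 32 degrees of freedom (12.5%).

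The same split was made for other hetero-oligomers as a description without a test. With gene levels set aside, the common part was 10.7% for rpt1 to rpt6, the ATPase ring of the proteasome, 29.5% for pfd1 to pfd6, the prefoldin subunits that hand substrates to CCT, and 50.2% for mcm2 to mcm7, the ring helicase of DNA replication. The arrays hold 16.7% of the degrees of freedom in each of these 3. The mean of the mcm genes was -0.01, -0.09 and -0.13 on the arrays labelled tra1-1, against 0.04 and 0.23 on those labelled wild type, all 6 lay below 0 in the difference (median -0.20), and none passed limma. Without the array labelled tra1-1 replicate 3, 1 of the 6 lay above 0.

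**Figure D3:**
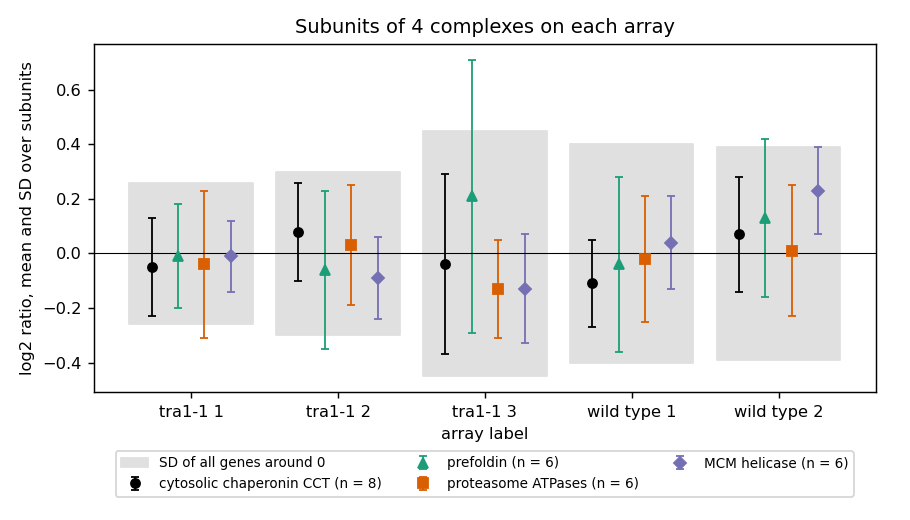
Mean and SD over subunits of the log2 ratio (y axis) of 4 complexes on each array (x axis, tra1-1 left of wild type), with grey boxes for the SD of all genes around 0. The CCT means lie between -0.11 and 0.08 without a step between the groups, and the CCT spread is widest on the array labelled tra1-1 replicate 3.

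The profile of the complex was so flat that likeness to it carries little information. Measured by the root mean square difference from the mean of the 8 genes over the 5 arrays, the nearest genes were the mitochondrial ribosomal protein gene mrps17 (0.04), the autophagy gene atg7 (0.04), the ribosomal protein gene rpl902 (0.04), SPOM_SPBC24C6.03 (0.06) and rpl4101 (0.06). For the cct genes themselves it ran from 0.11 for cct2 and cct6 to 0.31 for cct8. As many as 2913 other genes were nearer to the mean of the complex than cct8 was, and 113 were nearer than cct2. The root mean square of the mean profile itself, its distance from 0, was only 0.07. In the gene order of the assembly ASM294v3, at least 37 protein-coding genes separate any 2 cct genes on a chromosome, so the 8 are not neighbours.

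Ratios on the arrays labelled tra1-1 were also tested against 0, which keeps any effect of the dyes. limma called 0 of 8 cct genes, beside 7.83% of all genes, and 1 of 8 had an unadjusted p under 0.05, beside 28.8%. That gene was cct7, at 0.33 ± 0.11 (SE, limma adjusted p = 0.0968). The next was cct8, at -0.27 ± 0.14 (SE, limma adjusted p = 0.223). On the arrays labelled wild type limma again called 0 of 8, beside 11.4% of all genes, and 1 had an unadjusted p under 0.05, beside 30.1%. That gene was cct5, at -0.31 ± 0.13 (SE, limma adjusted p = 0.14). The cct5 ratio was therefore farther from 0 on the arrays that should compare like with like than on the arrays labelled tra1-1, where it averaged 0.12 (limma adjusted p = 0.487). Without the array labelled tra1-1 replicate 3 the calls among the 8 genes stayed at 0 in both tests, beside 22.4% of all genes for tra1-1 and 27.9% for wild type.

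Partners that deliver substrates to CCT gave small differences of either sign. Of the 6 prefoldin genes 3 were above and 3 below 0 in the difference, with a median of 0.01 (-0.03 with the values as deposited and with scale normalization, -0.02 with quantile normalization), a range of -0.15 to 0.18 and 0 past limma. Without the array labelled tra1-1 replicate 3 the median was -0.16, with 2 of 6 above 0 and 0 past limma. The differences of pfd6, pfd2, pfd4, pfd3 and pfd1 were 0.18, -0.15, -0.11, 0.09 and -0.03, and without that array 0.15, -0.20, -0.22, 0.19 and -0.11. pfd5 had the widest range over arrays, at 0.13, 0.26 and 1.11 on the arrays labelled tra1-1, against 0.28 and 0.61 on those labelled wild type. Its difference was 0.06, and without the array labelled tra1-1 replicate 3 it was -0.25 (limma adjusted p = 0.495).

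Genes of CCT substrates were examined next, and none passed limma in the difference. The actin gene act1 had -0.20, 0.23 and -0.21 on the arrays labelled tra1-1, against -0.06 and -0.26 on those labelled wild type, with overlapping groups and a difference of 0.10. The alpha tubulin gene nda2 had 0.12, 0.08 and -0.38 on the arrays labelled tra1-1, against 0.04 and 0.06 on those labelled wild type, a difference of -0.11. The beta tubulin gene nda3 had -0.29, -0.34 and -0.57 on the arrays labelled tra1-1, against -0.37 and 0.00, a difference of -0.22. Differences of the other alpha tubulin gene atb2, the gamma tubulin gene gtb1 and the actin-related gene arp3 were -0.11, -0.05 and -0.22. The median of the 6 genes was -0.11, with 1 above 0. It was -0.03, with 3 above 0, when the array labelled tra1-1 replicate 3 was left out, as nda2 and gtb1 turned to 0.05 and 0.01, act1 and nda3 stood at 0.18 and -0.13, and atb2 and arp3 at -0.06 and -0.24. In the tests against 0 the atb2 ratio was below 0 past limma on the arrays labelled tra1-1 (-0.46, adjusted p = 0.0427). It was the only 1 of the 6 there, beside 7.83% of all genes, and 0 of the 6 passed on those labelled wild type. arp2 was also listed but has no probe by that name. Among WD-repeat proteins, slp1, the Cdc20 activator of the anaphase-promoting complex, differed by 0.29, its counterpart srw1 (also ste9) by -0.03, the G protein beta subunit gene git5 by -0.22 and wat1, a counterpart of Lst8, by 0.09. These were 0.28, 0.14, -0.36 and 0.11 without the array labelled tra1-1 replicate 3, and none passed limma.

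The tubulin folding cofactors, which act on tubulin after CCT releases it, gave values on both sides. alp31, the counterpart of cofactor A, had -0.27, -0.34 and -0.68 on the arrays labelled tra1-1, against -0.98 and -0.97 on those labelled wild type. Its groups did not overlap, and its difference of 0.55 ± 0.18 (SE) did not pass (limma adjusted p = 0.625). Without the array labelled tra1-1 replicate 3 the difference was 0.67 and passed (limma adjusted p = 0.0175). On the arrays labelled wild type the alp31 ratio was below 0 past limma (adjusted p = 0.00601). alp41, a small GTPase that works with the cofactors, had ratios above 0 past limma on the arrays labelled tra1-1 (0.44, adjusted p = 0.0453) and on those labelled wild type (0.63, adjusted p = 0.0154). Of all genes, 7.83% passed against 0 on the arrays labelled tra1-1 and 11.4% on those labelled wild type. alp1, alp21, alp41 and alp11 differed by 0.22, -0.18, -0.19 and -0.04 between the groups, and by 0.18, -0.14, -0.15 and -0.11 without the array labelled tra1-1 replicate 3.

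In the difference, other chaperones lay mostly above 0. Of 12 genes of the cytosolic Hsp70 and Hsp90 system 11 were above 0 (9 with the values as deposited), beside 49.4% of all genes. The median difference was 0.21, with 0 past limma. Tested against 0, none of the 12 passed on the arrays labelled tra1-1, beside 7.83% of all genes. On those labelled wild type 1 passed, below 0, beside 11.4% of all genes. fes1, which encodes a nucleotide exchange factor of Hsp70, had 0.28, 0.49 and -0.02 on the arrays labelled tra1-1, against -0.47 and -0.50 on those labelled wild type, a difference of 0.73 ± 0.18 (SE, limma adjusted p = 0.625). The Hsp90 cochaperone genes aha1 and wos2 differed by 0.47 and 0.44, and the Hsp40 gene mas5 by 0.48 (limma adjusted p = 0.685, 0.685 and 0.749). In that order they averaged 0.19, -0.02 and -0.12 on the arrays labelled tra1-1, against -0.28, -0.46 and -0.60 on those labelled wild type. The median of this list was 0.22, 0.19 and -0.11 on the arrays labelled tra1-1, against -0.18 and -0.34 on those labelled wild type, so replicate 3 lay nearest to the arrays labelled wild type, as it did for tra1. Without that array the median was 0.41, and fes1 (0.87, limma adjusted p = 0.00332) and mas5 (0.81, limma adjusted p = 0.0166) passed, beside 4.18% of all genes.

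The mitochondrial chaperonin, a relative of CCT in another compartment, stood with that list in sign. mcp60, its large subunit gene, differed by 0.07 and hsp10, its cochaperonin gene, by 0.26. The mitochondrial Hsp70 gene ssc1 and its exchange factor gene mge1 differed by 0.19 and 0.44. In the difference 4 of 4 were thus above 0, beside 49.4% of all genes, with a median of 0.23 and 0 past limma. Leaving out the array labelled tra1-1 replicate 3 gave a median of 0.35, and ssc1 differed by 0.43, again with 0 past limma. On the arrays labelled wild type the mge1 ratio was below 0 past limma (-0.73, adjusted p = 0.00926), beside 11.4% of all genes. On those labelled tra1-1, 0 of the 4 passed against 0. The cct median by array was -0.09, 0.02 and 0.00 on the arrays labelled tra1-1, against -0.11 and 0.14 on those labelled wild type. The difference between the cct genes and these lists was not tested.

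**Figure D4:**
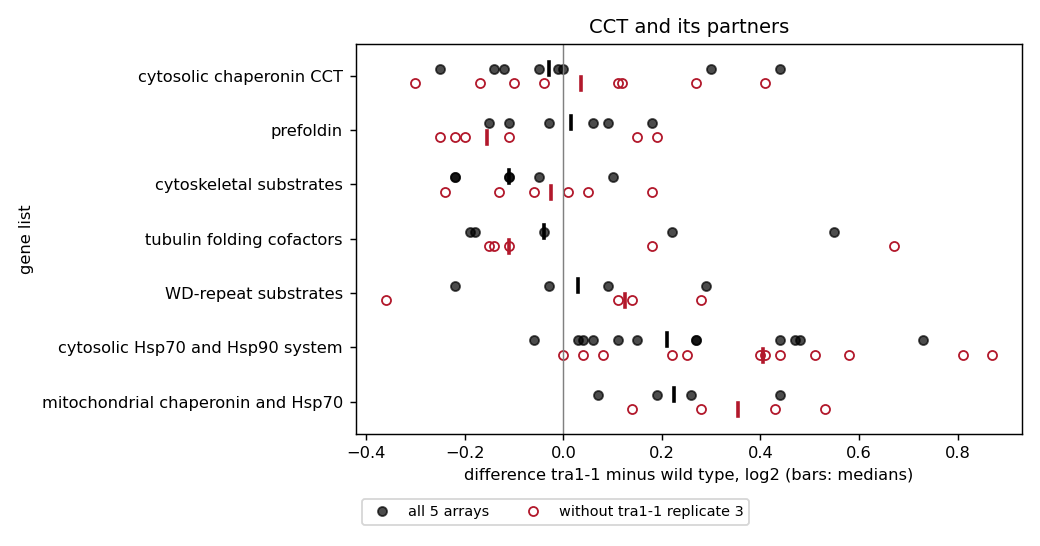
Difference of tra1-1 minus wild type (x axis, log2) for the members of 7 gene lists (y axis), with filled points from all 5 arrays, open points without the array labelled tra1-1 replicate 3, and bars for medians. The cct genes spread around 0 (median -0.03), and 11 of 12 genes of the Hsp70 and Hsp90 system lie above it (median 0.21), beside 49.4% of all genes.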

How the data were processed

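The deposited table gives log ratios by probe and array, with some missing, read here as log2. For its scanner, background correction, within-array normalization, log base and direction, the sources used here give nothing. Cy5 over Cy3 is likely, because the labels place each sample in Cy5. Deposited column medians of -0.43 to -0.21 show that the columns as deposited were not centred on the median of these probes, and channel intensities were not used here.

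Centring set the median of the probes of every array to 0. Probes were named through the platform annotation and current symbols through the gene table of ASM294v3. The 2 oligonucleotides of a gene were averaged. The 4907 genes and unnamed pairs with a value on all 5 arrays were fitted in R 4.3.3 by limma 3.58.1 (lmFit, then eBayes), 2-sided, with Benjamini-Hochberg adjustment over all of them at 0.05. Ratios on the arrays labelled wild type came from the same fit, and those on the arrays labelled tra1-1 from a fit of these arrays alone. Scripts were tested on simulated data.

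The members, lists and tests were chosen with earlier results of these data known. All 8 cct genes are named. Lists were matched by symbol or synonym, and lists of up to 7 genes are given whole (the comparison rings by summary only) and the longer list by the 4 members with the smallest p. The values by array of pfd5 and alp31 were added after all values were seen. Phosducin-like cofactors were to be found by product text and were not analysed here. The 5 genes nearest to the cct mean were named by root mean square difference. Plots used Python 3.11.15 and matplotlib 3.10.9.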

Additional observations from a re-analysis of the deposited data

How the results depend on the processing

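Across 14 alternative settings (scaling, single oligonucleotides, missing values, prior, array weights, replicate block, leaving out each array), the median of the 8 genes ran from -0.12 to 0.05. In those with at least 2 arrays in each group, 0 cct genes passed limma in the difference. Of all genes, limma called 329 with the replicate block, 205 without the array labelled tra1-1 replicate 3 and 95 with array weights. It called 2 with scale normalization and 1 with the second oligonucleotide. The others of these settings called 0 of all genes, so 0 cct calls there says little. Leaving out 1 array gave medians of -0.12 to 0.04. Against 0, the first oligonucleotide alone gave 2 calls on the arrays labelled tra1-1 (cct7 above, cct8 below), beside 662 of all genes. The second gave 1 call there (cct3 above), beside 549 of all genes. It also called cct3 on the pair labelled wild type, beside 544 of all genes. With the values as deposited, the median of all genes lies below 0. Calls against 0 then numbered 5 on the arrays labelled tra1-1, beside 2613 of 4907 genes. On those labelled wild type they numbered 2, beside 1561 of 4907 genes. All of these cct calls lay below 0. Of 112 recomputed differences of single genes, 18 had the opposite sign. The missing-value and prior settings could not change a sign. The replicate block repeated the differences without the array labelled tra1-1 replicate 3, with cct1 turned to 0.11 and cct8 to 0.12 in both. With array weights cct1 turned to 0.07 and cct8 to 0.05. cct1 also turned to 0.07 with the first oligonucleotide, 0.01 with quantile and with scale normalization and 0.14 without the array labelled wild type 2. cct3 turned to 0.07 with the first oligonucleotide and without the array labelled tra1-1 replicate 2, 0.03 without that labelled wild type 2 and 0.00 with quantile normalization. cct2 turned to 0.00 with the second oligonucleotide and without the array labelled wild type 2, cct4 to 0.04 with the first and cct6 to 0.03 with the second. Leaving out each array in turn gave -0.16 to 0.14 for cct1, -0.27 to 0.00 for cct2, -0.04 to 0.07 for cct3, -0.37 to -0.14 for cct4, 0.37 to 0.54 for cct5, -0.20 to -0.04 for cct6, 0.14 to 0.45 for cct7 and -0.20 to 0.12 for cct8. cct7 and cct4 moved most without an array labelled wild type, to 0.14 and -0.37 without the first and 0.45 and -0.14 without the second. The cause of these changes was not tested. Same-numbered arrays did not deviate together (r = 0.04 and -0.03 across genes), so the numbers were not taken as pairs. With the replicate block 0 cct genes passed and the median was 0.04. A lone array left in a group was assumed to vary like the other group. Ratios against 0 have no fit with the block. Signal over background was not analysed here, and the number of arrays limits the precision.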
